A study of Mus musculus with 4 samples.

Results

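The genes described here are 10 integrin subunit genes of epithelial cells, of 22350 annotated protein-coding genes: Itga2, Itga3, Itga5, Itga6, Itgav, Itgb1, Itgb3, Itgb4, Itgb5 and Itgb6. They are a list of names, drawn up with earlier results of these data known, and no measured value enters the rule that chose them. Accessible regions were assigned to them by position. A region counted towards the transcription start site (TSS) of a gene if it lay within 1000 bp of any of its annotated transcript starts, and towards the locus if it overlapped the gene body extended by 20 kb on either side. In all, 38 of 19648 regions of the vehicle list, 78 of 38532 regions of the TGFβ list and 47 of 26732 regions of the 10 min list lay over the 10 loci. All coordinates are those of the mouse genome build mm9, with genes from GENCODE vM1.

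Integrins are adhesion receptors made of an α and a β subunit that span the membrane and tie the extracellular matrix to the actin or keratin cytoskeleton. Which matrix a cell can hold on to depends on the pairs it makes: α2β1 binds collagen, α3β1 and α6β4 bind laminin in the basement membrane, α5β1 binds fibronectin, and the αv pairs bind vitronectin, fibronectin and the latent form of TGFβ. Epithelial cells that respond to TGFβ by epithelial to mesenchymal transition are known to change the integrins they carry, and αvβ6 is known for releasing active TGFβ from its latent complex.

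Chromatin was mapped by ATAC-seq, in which the transposase Tn5 inserts sequencing adapters into open DNA, in NMuMG cells, an established line of mouse mammary gland epithelium. Of 4 samples, 1 received vehicle and 1 received TGFβ1 at 5 ng/ml for 2 h, both in complete medium with serum and insulin. The other pair was deprived of serum and insulin for 6 h before vehicle or TGFβ1 at 5 ng/ml for 10 min. The labels of both samples of that pair name the same list, so this list stands for the 10 min experiment and not for a condition; for its TGFβ sample, a label field gives 2 h where the title gives 10 min, and the title was followed. The lists hold no replicates and no read counts, so no test between conditions could be made and no p-value is given. Read totals that accompany the study, which were not used as data, are larger for vehicle than for TGFβ in the 2 h pair. Whether depth or library quality bears on the lengths of the lists was not tested. Each interval carries the authors' score, a scaled measure of how reproducible a peak was, which had a lowest value of 540 and a cap of 1000 in all 3 lists. Of 10 epithelial marker genes, 4, 5 and 5 had a region at a TSS in the vehicle, TGFβ and 10 min lists. Over all protein-coding genes the shares were 41.0, 47.6 and 46.3%, so these counts were near the background. Krt8, Krt18, Krt19 and Grhl2 were covered in every list, Cldn4 in the TGFβ list and Cdh1 in the 10 min list, while Epcam had no region over its locus. Of 12 markers of other cell types, the leukocyte gene Cd68 and the endothelial gene Kdr had a TSS region, each in the TGFβ list, and none of 4 fibroblast markers had one.

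The stretches of 100 bp immediately upstream of the reference TSS, the most upstream start of a protein-coding transcript, are given for the 4 members whose start was not covered in every list. Itga2 and Itgb5 had a TSS region in the TGFβ and 10 min lists only, and Itgb4 and Itgb6 had none in any list. The sequences were read from the mm9 genome 5′ to 3′ in the direction of transcription, and they have no capitals because none of the searched motifs was found in them.
Itga2, chr13:115722250-115722349, minus strand: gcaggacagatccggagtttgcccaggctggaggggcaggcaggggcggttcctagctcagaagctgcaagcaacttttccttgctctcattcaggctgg
Itgb4, chr11:115835923-115836022, plus strand: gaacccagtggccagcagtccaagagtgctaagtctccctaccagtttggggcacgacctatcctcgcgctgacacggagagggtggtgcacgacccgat
Itgb5, chr16:33829651-33829750, plus strand: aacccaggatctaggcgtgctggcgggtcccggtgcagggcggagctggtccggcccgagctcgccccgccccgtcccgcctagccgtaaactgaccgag
Itgb6, chr2:60560701-60560800, minus strand: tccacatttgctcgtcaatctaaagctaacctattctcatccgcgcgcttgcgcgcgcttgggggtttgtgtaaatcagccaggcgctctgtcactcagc

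The next sequences are each the central 200 bp of a region that was called in the TGFβ list and not in the vehicle list. The regions chosen are those over the integrin loci, away from the start of the member, that were at the score cap and hold a motif in this stretch. Capitals mark matches to the AP-1 consensus TGACTCA (or its reverse complement TGAGTCA) and to the SMAD element CAGACA (reverse complement TGTCTG), with no overlap between them. None of these stretches overlaps an annotated exon.
Itga2, chr13:115735934-115736133, plus strand: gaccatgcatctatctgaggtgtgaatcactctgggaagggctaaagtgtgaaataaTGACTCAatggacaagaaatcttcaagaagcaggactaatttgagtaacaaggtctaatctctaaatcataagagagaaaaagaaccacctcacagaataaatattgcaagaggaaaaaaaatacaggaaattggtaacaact
Itgav, chr2:83598954-83599153, plus strand: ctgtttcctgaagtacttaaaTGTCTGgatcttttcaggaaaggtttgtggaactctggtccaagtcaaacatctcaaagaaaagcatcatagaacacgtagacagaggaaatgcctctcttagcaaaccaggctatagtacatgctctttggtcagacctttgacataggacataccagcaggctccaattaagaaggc
Itgb1, chr8:131190736-131190935, plus strand: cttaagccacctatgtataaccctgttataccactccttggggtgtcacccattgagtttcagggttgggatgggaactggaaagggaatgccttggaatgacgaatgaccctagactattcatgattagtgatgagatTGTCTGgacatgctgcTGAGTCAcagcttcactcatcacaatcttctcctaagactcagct
Itgb3, chr11:104486139-104486338, plus strand: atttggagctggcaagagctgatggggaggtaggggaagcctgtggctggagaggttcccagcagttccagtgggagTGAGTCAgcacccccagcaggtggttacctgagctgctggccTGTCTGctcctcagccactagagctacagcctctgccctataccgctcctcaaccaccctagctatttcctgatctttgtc
Itgb3, chr11:104535169-104535368, plus strand: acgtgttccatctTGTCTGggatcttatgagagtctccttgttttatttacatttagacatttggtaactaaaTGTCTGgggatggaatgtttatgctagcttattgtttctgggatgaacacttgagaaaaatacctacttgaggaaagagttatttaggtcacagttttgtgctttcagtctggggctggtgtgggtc
Itgb6, chr2:60538181-60538380, plus strand: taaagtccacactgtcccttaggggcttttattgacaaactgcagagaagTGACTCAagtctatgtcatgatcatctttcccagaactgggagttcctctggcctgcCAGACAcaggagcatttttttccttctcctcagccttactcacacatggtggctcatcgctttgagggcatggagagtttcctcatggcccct
Of all distal regions of the TGFβ list, 32.2% hold an AP-1 match and 24.5% a SMAD match in a stretch of this length. A match is a run of letters and no measure of binding.

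At the start sites, 6 of the 10 genes had a region in the vehicle list, where 41.0% of protein-coding genes had one. The TGFβ list covered 8 of the 10, beside 47.6% of protein-coding genes, and the 10 min list also covered 8, beside 46.3%. Itga3, Itga5, Itga6, Itgav, Itgb1 and Itgb3 were covered in every list. The 2 genes with a TSS region in the TGFβ but not the vehicle list, Itga2 and Itgb5, compare with 7.24% of all protein-coding genes, and the 2 genes with none in any list, Itgb4 and Itgb6, with 50.4%. The map of start sites shows the same states beside those of the other integrin genes.

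**Figure D1:**
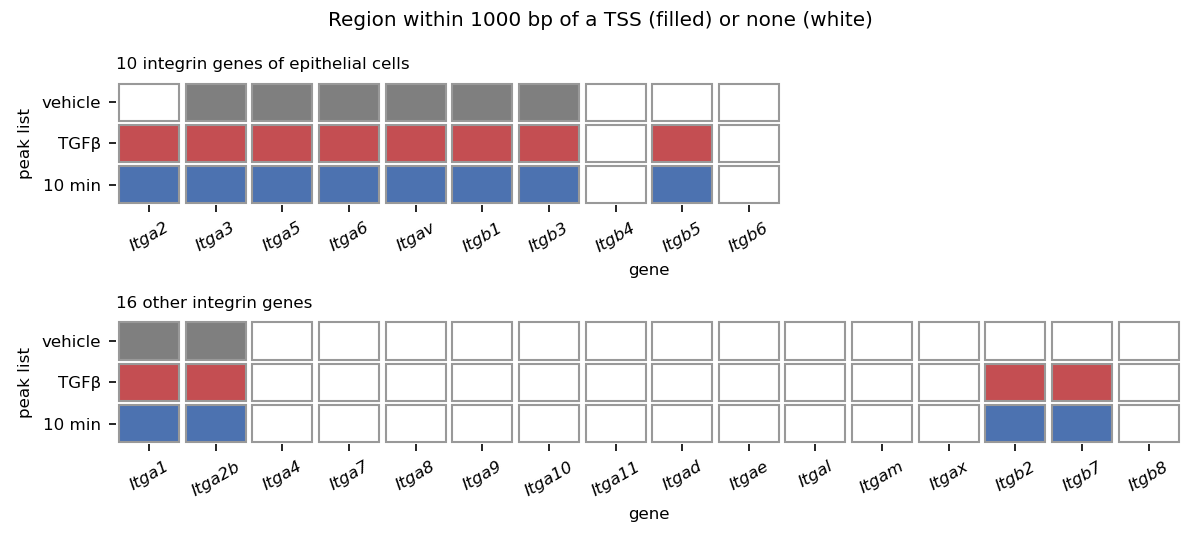
Presence of an accessible region within 1000 bp of a TSS for the 10 integrin genes (upper rows) and the 16 other integrin genes (lower rows) in the vehicle, TGFβ and 10 min lists; a filled box is a region and a white box is none. Among the 10 genes, Itga2 and Itgb5 are filled in the TGFβ and 10 min rows and white in the vehicle row.

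Itga2 (ENSMUSG00000015533.8, chromosome 13, 115626124-115722249, minus strand) encodes the α chain of the collagen receptor. Its TSS region in the TGFβ list, chr13:115722040-115722424, was 385 bp wide and at the score cap, and the 100 bp printed above lie inside it. In the 10 min list the region was 641 bp wide with a score of 801. The vehicle list had no interval of any width within 1000 bp of this start, and its nearest region began 1.46 kb upstream of it. Itgb5 (ENSMUSG00000022817.8, chromosome 16, 33829751-33949239, plus strand), the β partner of αv in a vitronectin receptor, had a TSS region of 206 bp at the cap in the TGFβ list, chr16:33829610-33829815, which holds its printed 100 bp. In the 10 min list that region was 418 bp wide with a score of 658. The vehicle list again had no interval of any width at the start.

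Itgb4 and Itgb6 were the genes without a region at any start. Itgb4 (ENSMUSG00000020758.9, chromosome 11, 115836023-115869726, plus strand) encodes the β chain of the hemidesmosome integrin, which anchors epithelia to laminin through keratin. Its nearest region ended 3.4 kb upstream of the start for vehicle, 3.35 kb upstream for TGFβ and 3.37 kb upstream at 10 min. That region was 302 bp wide with a score of 608 in the vehicle list and 1176 bp wide at the cap in the TGFβ list, a width ratio of 3.89, the highest among the pairs of shared regions over the 10 loci. In the 10 min list it was 974 bp wide with a score of 866. Itgb6 (ENSMUSG00000026971.9, chromosome 2, 60436349-60560700, minus strand) encodes the β chain that pairs with αv in epithelia. Its region nearest to the start lay in an intron in every list, 18.8 kb into the gene for vehicle and TGFβ and 18.6 kb at 10 min.

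The widths at the 6 starts covered in every list differed in direction from gene to gene. Itga3 (ENSMUSG00000001507.9, chromosome 11, 94905788-94938115, minus strand), the α chain of a laminin receptor, had the widest region over the loci in each list, at 1832 bp in the vehicle list (chr11:94937887-94939718), 2401 bp in the TGFβ list (chr11:94937372-94939772) and 2172 bp in the 10 min list (chr11:94937652-94939823). The region at the start of Itgav (ENSMUSG00000027087.5, chromosome 2, 83564554-83647073, plus strand), the α chain shared by the vitronectin and TGFβ-activating receptors, was 324 bp wide for vehicle, 856 bp for TGFβ and 793 bp at 10 min, at the cap each time. At Itgb1 (ENSMUSG00000025809.8, chromosome 8, 131209554-131257100, plus strand), the β chain common to the collagen, fibronectin and several laminin receptors, the widths were 1093, 1092 and 1104 bp, also at the cap in each list. Itga6 (ENSMUSG00000027111.8, chromosome 2, 71583673-71696473, plus strand), the α partner of β4, had widths of 711, 724 and 1112 bp, at the cap throughout. Itga5 (ENSMUSG00000000555.6, chromosome 15, 103174720-103197194, minus strand), the α chain of the fibronectin receptor, had 566, 519 and 915 bp, with scores of 872, 1000 and 1000. At Itgb3 (ENSMUSG00000020689.3, chromosome 11, 104469370-104531790, plus strand), the other β partner of αv with a role in vitronectin binding, the widths were 718, 400 and 338 bp, with scores of 565, 724 and 756. Of the 6 starts, Itga3, Itga6 and Itgav were wider in the TGFβ than in the vehicle list and Itga5, Itgb1 and Itgb3 were narrower, Itgb1 by a single base.

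Over the whole loci, every one of the 10 genes had more regions in the TGFβ list than in the vehicle list. Of all protein-coding genes 48.2% had more, but their loci are shorter (median 55.4 kb against 112 kb). Together they held 78 regions in the TGFβ list against 38 in the vehicle list, a ratio of 2.05 (95% exact interval 1.38 to 3.11). The TGFβ list as a whole was 1.96 times as long as the vehicle list, and over all protein-coding loci the ratio was 1.83, so the gain over the integrin loci was close to that of the lists themselves. The regions covered 20.8 kb of the loci for vehicle, 41.5 kb for TGFβ and 32.7 kb at 10 min. Intervals cover the counting of regions alone, and neighbouring regions are not independent. The interval of the ratio also takes the lists as independent counts, although 36 regions were paired between them. When the TGFβ list was shortened by score to 19648 regions, the number in the vehicle list, the loci held 40 of them in place of 78.

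**Figure D2:**
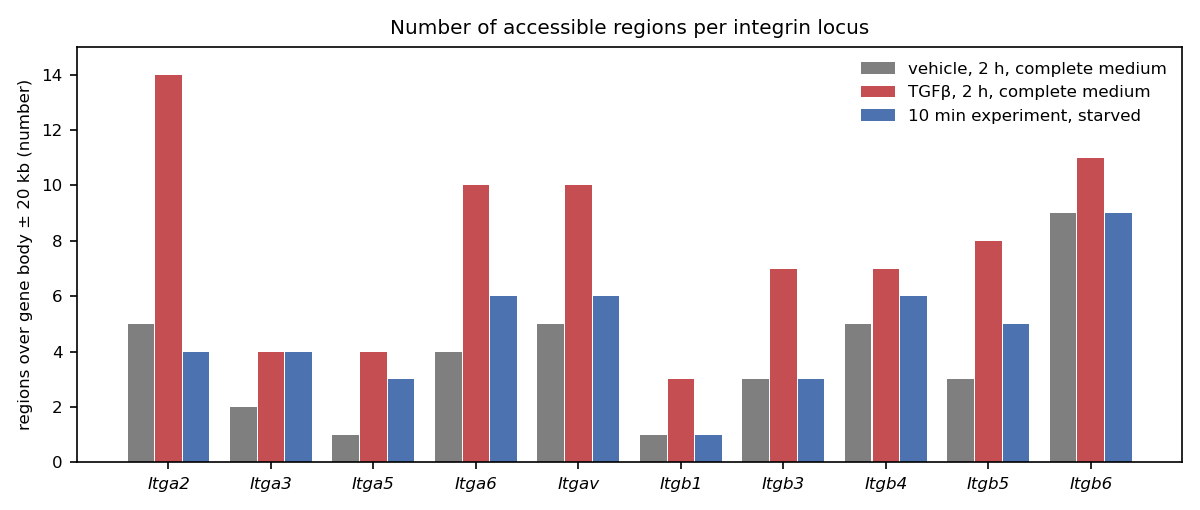
Number of accessible regions over each gene body ± 20 kb in the vehicle (grey), TGFβ (red) and 10 min (blue) lists; bars start at 0 and have no error, since each list is a single one. The red bar is the highest or joint highest for each gene, from 3 regions at Itgb1 to 14 at Itga2.

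The genes ranged widely in how many regions they held. Itga2 had the most in the TGFβ list, 14, against 5 in the vehicle list and 4 in the 10 min list, and 99.6% of protein-coding genes had fewer TGFβ-list regions over their locus. Itgb6 followed with 11, against 9 and 9. Itga6 and Itgav had 10 each, against 4 and 5 in the vehicle list and 6 each in the 10 min list. Itgb5 had 8 (3 in the vehicle and 5 in the 10 min list), Itgb4 had 7 (5 and 6) and Itgb3 also had 7 (3 and 3). Itga3 and Itga5 held 4 each, with 2 and 1 in the vehicle list and 4 and 3 in the 10 min list, and Itgb1 held 3, with 1 in each of the other lists. Counts that differ by a few regions cannot be ordered, since each comes from a single list.

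Long genes can hold more regions, and the integrin genes are long. Their loci had a median length of 112 kb, against 55.4 kb for all protein-coding genes. Per 100 kb of locus the median was 2.85 regions for vehicle, 6.62 for TGFβ and 4.36 at 10 min. The same medians over all protein-coding genes were 1.48, 2.36 and 1.95, and over the 10643 genes with a TSS region in the TGFβ list they were 2.34, 3.99 and 3.28. Among 7236 protein-coding genes with a locus between 62.5 and 164 kb, the range of the integrin loci, they were 1.43, 2.62 and 1.98. By this measure Itga2 was again first in the TGFβ list with 10.3 regions per 100 kb, followed by Itgb4 with 9.5 and Itgav with 8.16, and Itgb1 was last with 3.43. In the vehicle list the order was led by Itgb4 with 6.78 and Itgb6 with 5.48, the 2 genes of the epithelial β chains that had no region at their start. In every list, all regions counted for Itgb4 lay in the flanks and none in the gene body. They include the regions at the starts of Galk1 and H3f3b, so the rank of Itgb4 rests in part on neighbouring genes.

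Of the 78 TGFβ-list regions over the loci, 42 were TGFβ-only, meaning that no region of the vehicle list overlapped them by at least 1 bp. This is 53.8% (95% Wilson interval 42.9 to 64.5), beside 52.4% of all TGFβ-list regions. All 10 genes had at least 1 such region, beside 50.2% of protein-coding genes, whose loci are shorter (median 55.4 kb against 112 kb). Itga2 had 9, Itgb5 7, Itga6 6, Itgav 5, Itgb3 4 and Itga5 3, and Itga3, Itgb1, Itgb4 and Itgb6 had 2 each. When the TGFβ list was shortened by score to the length of the vehicle list there were 8, the number that stood at the score cap. Per 100 kb of locus the median was 3.92 TGFβ-only regions, beside 1.45 for genes with a TSS region in the TGFβ list and 1.05 for genes of the same range of locus length. The other 36 regions of the TGFβ list paired one to one with a region of the vehicle list.

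**Figure D3:**
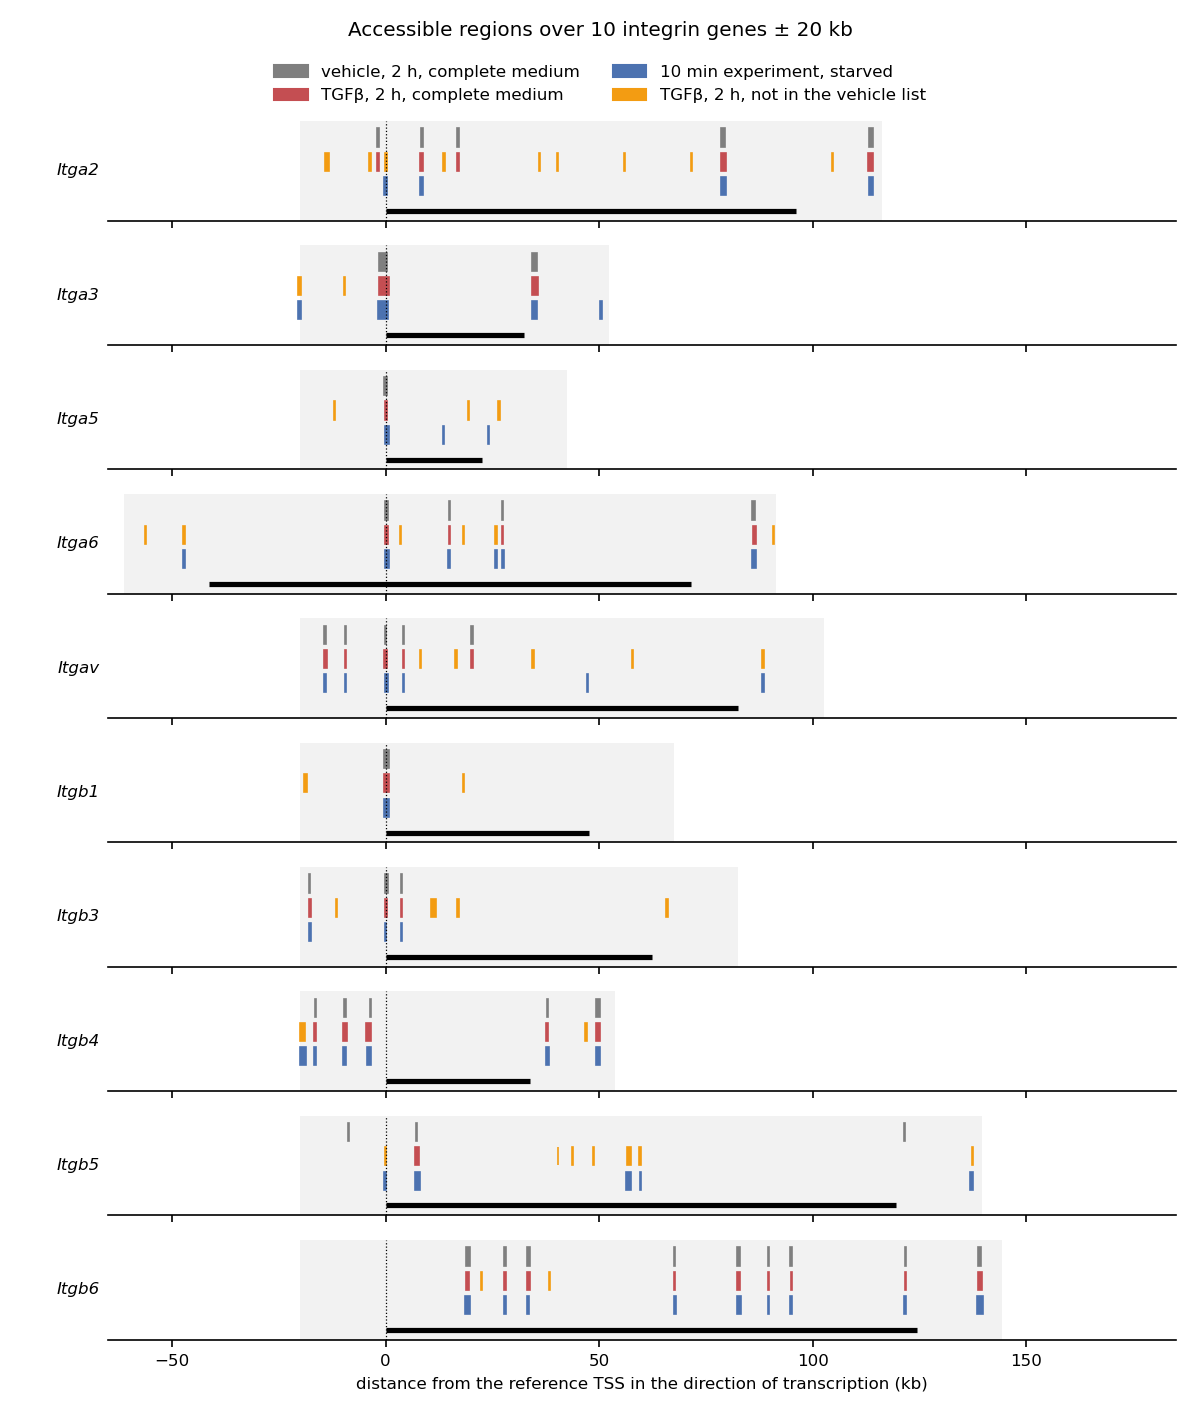
Accessible regions along each integrin locus, with distance in kb from the reference TSS (dotted line) in the direction of transcription; the upper row of boxes is the vehicle list (grey), the middle row the TGFβ list (red where shared with the vehicle list, orange where not) and the lower row the 10 min list (blue), the black bar is the gene and the shading the locus. The orange boxes number 9 at Itga2 and 2 at Itgb6, where the 9 remaining regions stand in all 3 rows, and the start of Itgb4 and of Itgb6 has no box.

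Of the 42 TGFβ-only regions, 22 were in introns, 1 overlapped an exon, 10 were upstream, 7 were downstream and 2 were the starts of Itga2 and Itgb5. Of the shared 36, 16 were in introns, 1 overlapped an exon, 7 were upstream, 6 were downstream and 6 were at a start. Introns and exons thus held 54.8% of the TGFβ-only and 47.2% of the shared regions, with regions at a start counted apart. Gene bodies take up 64.7% of the loci. That share includes the starts, so it cannot be set directly against the other 2. Some regions over the loci were at the TSS of another gene, namely 10 of the 78 in the TGFβ list and 4 of the 42 TGFβ-only ones. These include Mocs2 beyond the end of Itga2, Pdk2 beyond Itga3, Zfp385a beyond Itga5, Pdk1 beyond Itga6, Fam171b beyond Itgav, and Galk1 and H3f3b beyond Itgb4. Without them, 68 regions remained in the TGFβ list, 38 of them TGFβ-only, and 32 in the vehicle list.

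The TGFβ-only calls over the integrin loci were small. Their median width was 312 bp (150 to 1354 bp), against 562 bp (252 to 2401 bp) for the shared 36, and over the whole list the medians were 281 and 546 bp. Of the TGFβ-only regions 8 (19.0%, 95% Wilson interval 9.98 to 33.3) were at the score cap, beside 13.9% of all TGFβ-only regions. Of the shared regions 29 (80.6%, 65.0 to 90.2) were at the cap, beside 71.6% of all shared regions of the list. The plot of widths gives each region by gene.

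**Figure D4:**
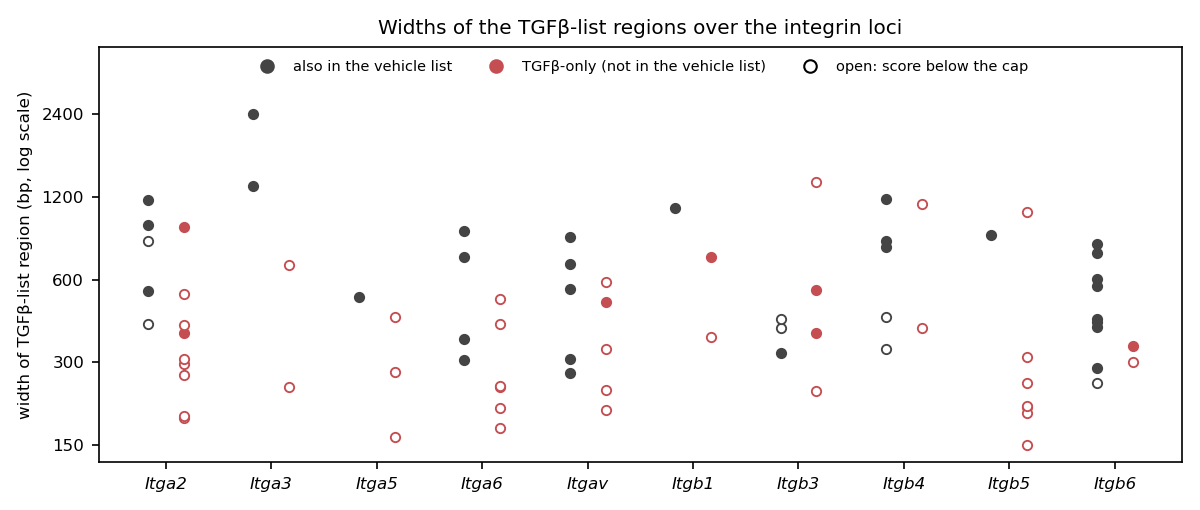
Width in bp (log axis) of each of the 78 TGFβ-list regions over the integrin loci, by gene; grey points are shared with the vehicle list, red points are TGFβ-only, filled points are at the score cap and open points below it. Most red points are open and lie below the grey ones of the same gene, with medians of 312 and 562 bp.

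The 8 TGFβ-only regions at the cap were spread over 6 genes. Apart from both starts, Itga2 had a region of 934 bp at chr13:115735567-115736500, 13.3 kb upstream of its start, in the TGFβ list alone. Itgb1 had one of 726 bp at chr8:131190473-131191198, 18.4 kb upstream of its start, and none in the other lists outside the start itself. At Itgb3 there were 2, one of 548 bp in an intron 16.6 kb from the start (chr11:104485965-104486512) and one of 383 bp downstream of the gene (chr11:104535078-104535460). Itgb6 had an intronic region of 343 bp at chr2:60538110-60538452, 22.2 kb into the gene. The region of Itgav, 499 bp at chr2:83598805-83599303, lay in an intron and also at the start of the noncoding gene Gm13684, so it cannot be assigned to Itgav alone. None of these 6 was in the 10 min list, whereas both starts were. Itga3, Itga5, Itga6 and Itgb4 had no TGFβ-only region at the cap.

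Regions in the vehicle list but not in the TGFβ list numbered 2 of 38 (5.26%, 95% Wilson interval 1.46 to 17.3), beside 6.44% of the whole vehicle list. Both were at Itgb5, and 6.93% of protein-coding genes had a vehicle-only region over their locus. One was 220 bp wide with a score of 640, 8.61 kb upstream of the start (chr16:33820922-33821141), and the other was 321 bp wide with a score of 590, downstream of the gene (chr16:33951017-33951337). Neither was in the 10 min list. Itgb5 was thus the gene in which calls went both ways, with 7 TGFβ-only regions, 2 vehicle-only regions and 1 shared region, an intronic one that was 354 bp wide in the vehicle list and 871 bp in the TGFβ list.

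Among the 36 pairs of shared regions, 24 (66.7%) were wider in the TGFβ list, beside 66.1% of 18268 such pairs over the genome. The median width ratio was 1.13 over the loci and 1.11 over all pairs. After the region upstream of Itgb4, the highest ratios were 2.64 at the start of Itgav, 2.46 in the intron of Itgb5 and 2.1 in an intron of Itga2. The lowest were 0.557 at the start of Itgb3 and 0.592 at an exon of Itgb6. All 4 pairs of Itga6 and all 5 pairs of Itgav were wider in the TGFβ list, while 6 of the 9 pairs of Itgb6 were narrower. In 18 pairs the region was at the score cap in the TGFβ list only, in 11 in both lists, in 1 in the vehicle list only and in 6 in neither. The same split over all pairs is not given here. Of all shared regions of the TGFβ list 71.6% were at the cap, beside 80.6% of those over the loci.

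The 10 min list differs from the others in time, medium and library at once, and these cannot be told apart. It held 43 of the 78 TGFβ-list regions over the loci (55.1%, 95% Wilson interval 44.1 to 65.7), beside 59.8% of the whole TGFβ list. Shared regions were called again in 33 of 36 cases (91.7%, 78.2 to 97.1), and TGFβ-only regions in 10 of 42 (23.8%, 13.5 to 38.5). Over the whole list the shares were 90.8% and 31.5%. The 10 TGFβ-only regions in the 10 min list were 4 at Itgb5, 2 at Itga6 and 1 each at Itga2, Itga3, Itgav and Itgb4. At Itgb5 they included the start, 2 intronic regions 56.4 and 59.4 kb from it, and a region at the start of the neighbouring gene Umps.

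Counted by place, the lists had 84 sites over the 10 loci. Of these, 33 (39.3%) were in all 3 lists, 32 (38.1%) in the TGFβ list alone, 10 (11.9%) in the TGFβ and 10 min lists, 4 (4.76%) in the 10 min list alone, 3 (3.57%) in the vehicle and TGFβ lists and 2 (2.38%) in the vehicle list alone. Over all 42895 sites the shares were 38.9, 32.2, 14.6, 7.60, 3.92 and 1.64%. The 4 sites of the 10 min list alone were 514 bp downstream of Itga3 (chr11:94887393-94887906), 301 bp downstream of Itga5 (chr15:103172958-103173258), 327 bp at an exon of Itga5 (chr15:103183439-103183765) and 258 bp in an intron of Itgav (chr2:83611662-83611919), with scores from 542 to 671. All vehicle-list regions were in both other lists for Itgb6 (9 regions), Itgb4 (5), Itga6 (4), Itgb3 (3), Itga3 (2), Itga5 (1) and Itgb1 (1), but not for Itga2, Itgav and Itgb5.

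Sequence matches were counted within 200 bp of the centre of each distal region, one at no TSS of any gene. AP-1 proteins (Fos and Jun) bind TGACTCA or its reverse complement TGAGTCA, SMAD proteins carry the TGFβ signal and bind CAGACA or GTCTAGAC, and ETS factors were searched as ACCGGAAGT with 1 mismatch allowed, on both strands. In the 36 distal TGFβ-only regions over the loci, 18 (50%, 95% Wilson interval 34.5 to 65.5) held AP-1, 23 (63.9%, 47.6 to 77.5) held SMAD and 3 (8.33%, 2.87 to 21.8) held ETS. The shares over all distal TGFβ-only regions were 39.2, 41.8 and 5.67%. In the 24 distal shared regions, 8 (33.3%, 18.0 to 53.3) held AP-1, 13 (54.2%, 35.1 to 72.1) SMAD and 4 (16.7%, 6.68 to 35.9) ETS, beside 44.8, 37.0 and 6.27% of all distal shared regions. Over all 60 distal TGFβ-list regions of the loci, 36 (60.0%, 47.4 to 71.4) held SMAD, beside 40.2% of the list, and 26 (43.3%, 31.6 to 55.9) held AP-1, beside 41.2%. Both AP-1 and SMAD were found in 18 of the 60 (30%), beside 17.1% of the list. The median GC content in this window was 46.5% over the loci and 46.8% over the list. The SMAD share was above that of the list for the shared, the TGFβ-only and all distal TGFβ-list regions, and no test of this was made.

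**Figure D5:**
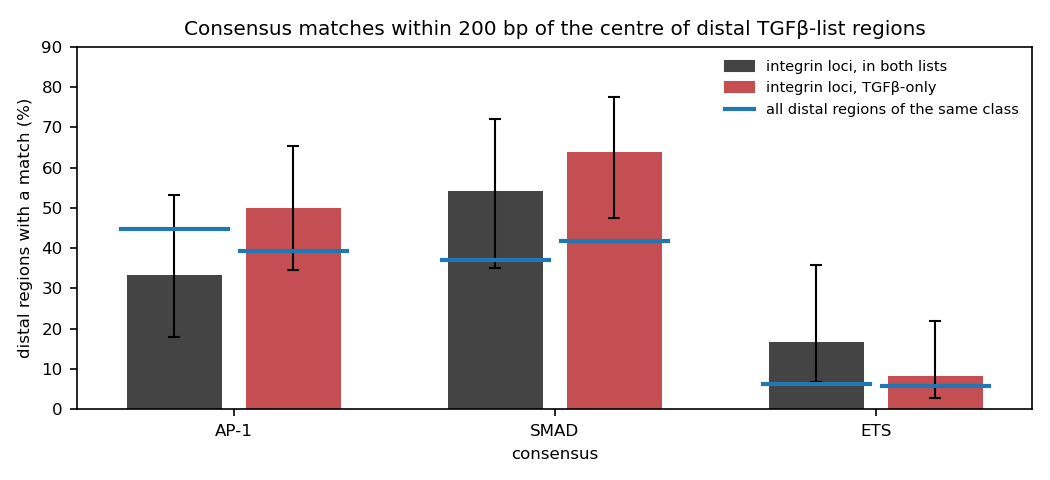
Share of distal TGFβ-list regions over the integrin loci with an AP-1, SMAD or ETS match within 200 bp of the centre, for regions shared with the vehicle list (grey bars, 24 regions) and TGFβ-only regions (red bars, 36 regions); error bars are 95% Wilson intervals and blue lines are the shares over all distal regions of the same class. The SMAD bars stand at 54.2% and 63.9%, above lines at 37.0% and 41.8%. The ETS bars stand at 16.7% and 8.33%, above lines at 6.27% and 5.67%, and the AP-1 bars lie on either side of theirs.

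The genes differed in where these matches fell. All 3 intronic TGFβ-only regions of Itgb5 between 40.2 and 48.6 kb from the start held SMAD, with 2, 2 and 3 matches, and the first 2 held AP-1 as well. The intronic Itgb3 region at the cap had 4 SMAD matches, the most of any region over the loci, and 1 AP-1 match. At Itga6, AP-1 and SMAD lay together in the TGFβ-only regions 56.0 kb upstream and 3.35 and 18.2 kb downstream of the reference start, which lies within the annotated gene body at position 71624997. Itga6 and Itgav each had 1 region with 2 AP-1 matches, in both cases a region called in all 3 lists: an intronic one at chr2:71639750-71640113 and one 9.31 kb upstream at chr2:83554930-83555239. No TGFβ-list region over Itgb4 held AP-1. In the 100 bp upstream of the start, the 10 genes had a median GC content of 66.5% and a median of 9 CpG dinucleotides, against 58.0% and 4 for all protein-coding genes. Itgb6 had the lowest GC content, 54.0%, and Itga2 the fewest CpG, 2, while Itgb5 had 73.0% and 12. Of the 10 stretches, 0 held AP-1 (1.54% of all), 1, that of Itgb1, held SMAD (5.60% of all) and 0 held ETS (4.90% of all).

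Of the 16 other integrin subunit genes, 2 had a TSS region for vehicle, 4 for TGFβ and 4 at 10 min. The shares of all protein-coding genes were 41.0, 47.6 and 46.3%. Itga1, the α chain of another collagen receptor, and Itga2b, the platelet fibrinogen receptor chain, were covered in every list, and Itgb2 and Itgb7, β chains of leukocyte integrins, in the TGFβ and 10 min lists. The other 12 (Itga4, Itga7, Itga8, Itga9, Itga10, Itga11, Itgad, Itgae, Itgal, Itgam, Itgax and Itgb8) had none. Over the loci of the 16 genes lay 18, 42 and 27 regions of the vehicle, TGFβ and 10 min lists. Of the 42, 25 (59.5%) were TGFβ-only, beside 52.4% of all TGFβ-list regions. The median per gene was 0.5, 2.5 and 1 regions, against 3.5, 7.5 and 4.5 for the 10 genes. Itga4, Itga8, Itgad and Itgax had no region in any list.

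Genes that act with these integrins were read in the same way. Of 14 ligand genes, 7, 9 and 10 had a TSS region in the vehicle, TGFβ and 10 min lists. Among all protein-coding genes 41.0, 47.6 and 46.3% had one. Lamb3, a chain of the laminin bound by α3β1 and α6β4, and Vtn, vitronectin, had one in the TGFβ and 10 min lists but not in the vehicle list, and Lama5 in the 10 min list alone. The 14 loci held 39, 81 and 56 regions, 43 (53.1%) of the 81 being TGFβ-only, beside 52.4% of all TGFβ-list regions. The median per ligand gene was 2.5, 5.0 and 4.0 regions. Of 19 adaptor and signalling genes, 16, 17 and 17 had a TSS region, beside the same shares of 41.0, 47.6 and 46.3%. Fermt1, the epithelial kindlin that activates β chains, was the one with a TSS region in the TGFβ and 10 min lists and none in the vehicle list. Tln2, a talin, and Col17a1, a hemidesmosome collagen, had none in any list. Plec, which links β4 to keratin, had 7, 15 and 12 regions over its locus. The 19 loci together held 70, 133 and 95, with 69 (51.9%) of the 133 TGFβ-only, near the 52.4% of the list. The median per adaptor or signalling gene was 4.0, 6.0 and 4.0 regions, with a median locus of 102 kb. These medians are near those of the 10 integrin genes.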

How the data were processed

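Peak lists of ATAC-seq were analysed for 4 samples in 3 lists. Per the study's methods, the authors trimmed, aligned and filtered reads with the ENCODE ATAC-seq pipeline, called peaks with MACS2 (version 2.1.2 in the submitters' processing notes, q limit 0.01) and kept peaks with an irreproducible discovery rate (IDR) of at most 0.05 between replicates; the notes give build mm9 and also name deepTools. What served as replicates for these lists was not settled. Each deposited line holds an interval and the authors' score, a scaled IDR, with 1 line per summit.

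Intervals under 150 bp were dropped and gaps under 1000 bp merged. The highest interval score became the region's score. Regions were shared on an overlap of at least 1 bp. Intervals are 95% Wilson (shares) and exact conditional (ratios). They cover counting error only and take regions as independent. All regions lie within the mm9 chromosomes, so sequence and genes came from NCBIM37 (mm9) and GENCODE vM1. Scripts were tested on simulated lists (Python 3.11.15, numpy 2.4.6, pandas 2.3.3, scipy 1.17.1, pysam 0.24.0).

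All 10 genes are named. Regions with coordinates are those at a start missing from a list, vehicle-only, TGFβ-only at the cap, widest per list and in the 10 min list alone; a few others (the strongest width ratios and regions with several motif matches) were chosen after their values were seen. The genes and gene lists were chosen with earlier results of these data known. Alternatives changed the width limit, merging, score, list length, TSS window, transcripts, flank and overlap.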

Additional observations from a re-analysis of the deposited data

How the results depend on the processing

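Of 71 values of 9 results under other settings, 54 moved by less than 1.5 times or within their counting interval and 17 moved further. With the intervals at or above the median score of each list, the loci held 17 vehicle-list, 37 TGFβ-list and 19 10 min-list regions, 21 TGFβ-only and 1 vehicle-only, and a TSS region was left for 3 genes in the vehicle list and 5 in the 10 min list. With the TGFβ list shortened by score to the 19648 regions of the vehicle list, the loci held 40 of its regions, 8 TGFβ-only and 6 vehicle-only, and 80.0% of the 40 were in the 10 min list. Without the flanks of 20 kb there were 23, 48 and 28 regions in the vehicle, TGFβ and 10 min lists, 25 TGFβ-only and 0 vehicle-only, and with flanks of 50 kb there were 4 vehicle-only. In each of these settings fewer regions, or a longer stretch, entered the count by construction. Leaving out regions at the TSS of another gene was chosen after seeing the data and left 68 TGFβ-list regions, 38 of them TGFβ-only. No paired analysis was possible because the conditions have 1 list each, which also leaves no replicate to drop. The lists carry no read counts, so a region missing from a list was not called there and is not shown to be closed.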
